A study of Rattus norvegicus with 36 samples.

Results

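The genes described here carry the presentation of peptides to T cells: every gene of the rat major histocompatibility complex on the array (names starting with RT1-), the class II partner Cd74 and regulator Ciita, the class I partner B2m, the peptide transporter subunits Tap1 and Tap2, the loading factor Tapbp, the inducible proteasome subunits Psmb8, Psmb9 and Psmb10, the class I regulator Nlrc5, and the costimulatory ligands Cd80 and Cd86. The rule gave 60 of the 25597 gene names on the array, carried by 84 of 36146 named probes, and 48 of the 60 were RT1 genes. They were taken by name and not by any measured value. RT1 genes were divided by the array description or locus name into 10 class II genes, counted with Cd74 and Ciita as 12, and 38 class I heavy chain genes, and the 8 class I accessory genes were counted apart. The filter on dim probes kept 59 of the 60 (RT1-M1-4 was left out), among them 37 class I genes, and 23940 genes in all.

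The study followed the lung of female Sprague Dawley rats, 13 weeks old at dosing, after a deposit of DQ-12, a crystalline silica dust used as a reference for fibrosis. Exposed rats received 10 mg of DQ-12 through the trachea, a single dose level, and vehicle rats received the carrier alone. Accessory lobes of 6 DQ-12 and 6 vehicle rats were taken 1, 30 and 180 days later (D1, D30 and D180), with no pooling and 1 single-color array per rat, 36 in all. The lobe holds many cell types, so fewer cells of a type and less RNA per cell cannot be told apart in any value below, and the labels do not say whether rats of a group were dosed or processed together. Sftpc, the surfactant protein C gene that defines alveolar type 2 cells, had a mean log2 signal of 18.41 over the 36 arrays, as fits the labelled tissue.

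Class I molecules pair a heavy chain with beta-2 microglobulin (B2m) and show peptides from inside the cell to CD8 T cells. The proteasome cuts those peptides, the Tap1 and Tap2 transporter moves them into the endoplasmic reticulum, and tapasin (Tapbp) helps load them; nearly all nucleated cells make class I. Class II molecules are alpha and beta chain pairs held by the invariant chain (Cd74) until RT1-DM, the rat counterpart of HLA-DM, helps exchange the last fragment of it for a peptide, while RT1-DO restrains DM. They are made mainly by dendritic cells, macrophages and B cells, and in rodent lung also by alveolar type 2 cells. Ciita drives the class II promoters and Nlrc5 the class I promoters, both through a set of promoter elements that includes the X and Y boxes, and interferon gamma is the best known inducer of both pathways.

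The class I heavy chains are close copies of each other, and the array probes show it. Of 37 class I probes used, 10 listed other RT1 genes in the array annotation, and 16 shared a run of at least 20 bases with the probe of another class I gene (19 of 666 pairs, longest run 34 bases). Among the 45 pairs of class II probes the longest shared run was 10 bases. So a class I value may hold signal from several heavy chain genes and is uncertain as a measure of its own gene. The 3 probes below, chosen because each holds the same 16 bases (in capitals), lie in different genes. Their positions are those of the array files, in build rn4.
RT1-CE15 (chr20_random:56452-56511, minus strand): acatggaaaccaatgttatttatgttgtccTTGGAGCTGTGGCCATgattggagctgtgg
RT1-CE16 (chr20_random:37878-37937, minus strand): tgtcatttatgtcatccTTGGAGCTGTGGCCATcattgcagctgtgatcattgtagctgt
RT1-S3 (chr20:2817942-2818001, plus strand): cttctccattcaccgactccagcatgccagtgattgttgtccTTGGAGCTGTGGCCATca

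The probes of RT1-DMa and RT1-DMb, the genes of the DM alpha and beta chains, follow. These probes are printed because their genes had the largest D180 changes among class II genes well above background on every array. No 16-base run of that kind joins them.
RT1-DMa (chr20:4844372-4844431, minus strand): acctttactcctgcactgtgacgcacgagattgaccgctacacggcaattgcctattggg
RT1-DMb (chr20:4830313-4830372, minus strand): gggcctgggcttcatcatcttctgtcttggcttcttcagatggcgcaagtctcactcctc

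The promoters were searched because both pathways are known for shared promoter elements. RefSeq promoters of build GRCr8, windows of 300 bases that lie mostly before the start, were found for 49 of the 59 genes. The X box core AGNNACNGA, on either strand, stood in 8 of 9 class II promoters (88.9%), in 6 of 30 class I promoters (20%) and in 18.1% of all 33469 promoters. The Y box CCAAT stood in 9 of 9 class II, in 21 of 30 class I (70.0%) and in 37.5% of all. An X box core followed within 25 to 40 bases, start to start, by the reversed Y box (ATTGG), a window chosen after the letters were read, occurred in 5 class II promoters at 31 to 34 bases, in 1 class I promoter (RT1-CE10) and in 0.111% of all. Those 5 class II stretches follow, with both elements in capitals.
RT1-Bb (chr20:4604170-4604217, minus strand): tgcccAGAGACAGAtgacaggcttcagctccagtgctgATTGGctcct
RT1-DOb (chr20:4627597-4627642, minus strand): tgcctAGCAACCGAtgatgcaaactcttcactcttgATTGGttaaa
RT1-Da (chr20:4515327-4515375, plus strand): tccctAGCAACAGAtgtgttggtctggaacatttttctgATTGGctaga
RT1-Db1 (chr20:4560233-4560280, minus strand): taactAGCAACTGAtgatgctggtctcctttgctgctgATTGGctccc
RT1-Db2 (chr20:4541703-4541749, minus strand): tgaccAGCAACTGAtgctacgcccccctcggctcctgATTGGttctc

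The class I accessory genes held another element. GAAANNGAA, the core of the interferon-stimulated response element, stood on either strand in 6 of 7 class I accessory promoters (85.7%), in 3 of 30 class I heavy chain promoters (10.0%), in 0 of 9 class II promoters and in 9.71% of all. The gamma-activated site TTCNNNGAA stood in 1 of 7 class I accessory promoters, in 2 of 30 class I promoters, in 0 of 9 class II promoters and in 8.87% of all. The letters of the first element can overlap themselves, as in Tapbp, and a match describes letters only. The peptide loading genes Tap1, Tap2 and Tapbp are shown with the match in capitals (reversed in Tap1).
Tap1 (chr20:4668644-4668673, minus strand): ggtggctgctTTCGGTTTCttcttcctcta
Tap2 (chr20:4652318-4652347, minus strand): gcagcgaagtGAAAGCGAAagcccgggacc
Tapbp (chr20:4967884-4967913, minus strand): gcctttgaggGAAAATGAAAGTGAAaggaa

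Between 51.3% and 75.5% of probes were well above background on an array, both extremes at D180. Levels below are quantile-normalised log2 signals, a change is the DQ-12 mean minus the vehicle mean (log2 FC) from limma, and a gene was called when it changed by at least 2-fold with an adjusted p under 0.05 over all 23940 genes. Counts at an unadjusted p have no share of all genes beside them, because that share was not counted. The 36 arrays came from 19 slides and 11 scan dates, and these were uneven between groups. At D1 all 6 DQ-12 arrays were scanned on a date that held 1 vehicle array, so exposure and scan date can hardly be told apart there. At D180 the largest shared scan date held 3 arrays of each group, and 1 slide held arrays of both.

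At D180, 8 of the 12 class II genes were higher at an adjusted p under 0.05, against 7.82% of all genes, and 0 were lower. The 8 were RT1-DMa, RT1-DMb, RT1-Bb, RT1-Db2, RT1-Db1, RT1-Da, Cd74 and Ciita, with log2 FC between 0.58 and 1.02. The median log2 FC over the 12 was 0.65, against -0.03 over all genes. At D30 the count was 3 of 12 (Cd74, RT1-Da and RT1-DMb, against 2.74% of all genes), with a median of 0.42. At D1 it was 1 of 12 (RT1-DMb, against 7.58%), with a median of -0.05. In 6 of the 12 no DQ-12 rat reached down to the vehicle range at D180, against 3.85% of all genes.

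The DM chains had the largest changes at D180 among the class II genes well above background on every array. The log2 signal of RT1-DMa was 11.12, 11.31 and 11.63 in the lowest, median and highest DQ-12 rat and 10.19, 10.27 and 10.56 with vehicle. The groups did not overlap, and RT1-DMa was the only class II gene that passed both thresholds (log2 FC 1.02 ± 0.16 SE, n = 6, limma adjusted p = 2.27e-05), with its fold of 2.02 close to the 2-fold line. Its log2 FC ran from 0.96 to 1.06 with each rat left out in turn and fell below 2-fold without any of 5 single rats (vehicle D180 replicates 1, 2 and 4, DQ-12 D180 replicates 4 and 6). RT1-DMb, its partner chain, ran from 11.82 over 11.94 to 12.37 with DQ-12 and from 10.88 over 11.09 to 11.27 with vehicle. This change of 0.94 ± 0.10 (n = 6) had the smallest limma adjusted p of all 59 genes, 4.86e-08, and stayed below 2-fold. RT1-DMb was also the class II gene past the adjusted p at all 3 times, with log2 FC of 0.34 at D1 and 0.43 at D30. Its D1 groups overlapped, with 11.61, 11.76 and 12.05 in the lowest, median and highest DQ-12 rat against 11.30, 11.45 and 11.67 with vehicle.

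Cd74 is the invariant chain that holds class II molecules until they are loaded. At D1 its log2 signal was 14.60, 14.74 and 14.99 (lowest, median and highest) with DQ-12 and 14.95, 15.12 and 15.22 with vehicle, and 5 of 6 DQ-12 rats were below every vehicle rat. That difference, -0.32 ± 0.12 (n = 6), did not pass the limma adjusted p (0.0585), and it was -0.18 within the scan date that held both groups. At D30 the DQ-12 rats ran from 14.96 over 15.29 to 15.51 and the vehicle rats from 14.62 over 14.81 to 15.24, a rise of 0.41 ± 0.12 (n = 6, limma adjusted p = 0.0415). At D180 the groups separated, at 15.32, 15.54 and 15.84 with DQ-12 against 14.73, 15.02 and 15.23 with vehicle. Cd74 had then risen by 0.58 ± 0.12 (n = 6, limma adjusted p = 0.000532).

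The classical class II chains are those that hold peptide at the cell surface. RT1-Da, an alpha chain, ran from 13.07 over 13.36 to 13.63 with DQ-12 and from 12.47 over 12.64 to 13.02 with vehicle at D30. At D180 it ran from 13.87 over 14.13 to 14.47 against 13.01, 13.44 and 13.72. The groups did not overlap at either time (log2 FC 0.64 and 0.71, SE 0.14, n = 6, limma adjusted p = 0.00341 and 0.000224). The beta chains RT1-Db1 and RT1-Db2 rose at D180 by 0.85 and 0.90, again with no overlap, and had log2 FC of 0.25 and -0.07 at D30 that did not pass the test. RT1-Bb, the beta chain of the other classical pair, rose by 0.93 ± 0.23 (n = 6, limma adjusted p = 0.0033) at D180, with 5 of 6 DQ-12 rats above every vehicle rat. Its alpha chain RT1-Ba was not well above background on 33 of 36 arrays, so the pair could not be followed from both sides. RT1-Ha, also dim, was well above background on 6 of 36 arrays.

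RT1-DOa and RT1-DOb, the chains of the DM inhibitor, had log2 FC of -0.62 and -0.52 at D30 and of 0.54 and 0.51 at D180, and at neither time did they pass the adjusted p, although 5 of 6 DQ-12 rats lay above every vehicle rat at D180 for both. Ciita had log2 FC of 0.03 at D1 and at D30. At D180 its log2 signal was 9.14, 9.81 and 10.04 (lowest, median and highest) with DQ-12 and 8.89, 9.18 and 9.31 with vehicle, and the rise of 0.58 ± 0.15 (n = 6, limma adjusted p = 0.00619) left 1 DQ-12 rat within the vehicle range. Its other probe gave 0.90 at D180.

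**Figure D1:**
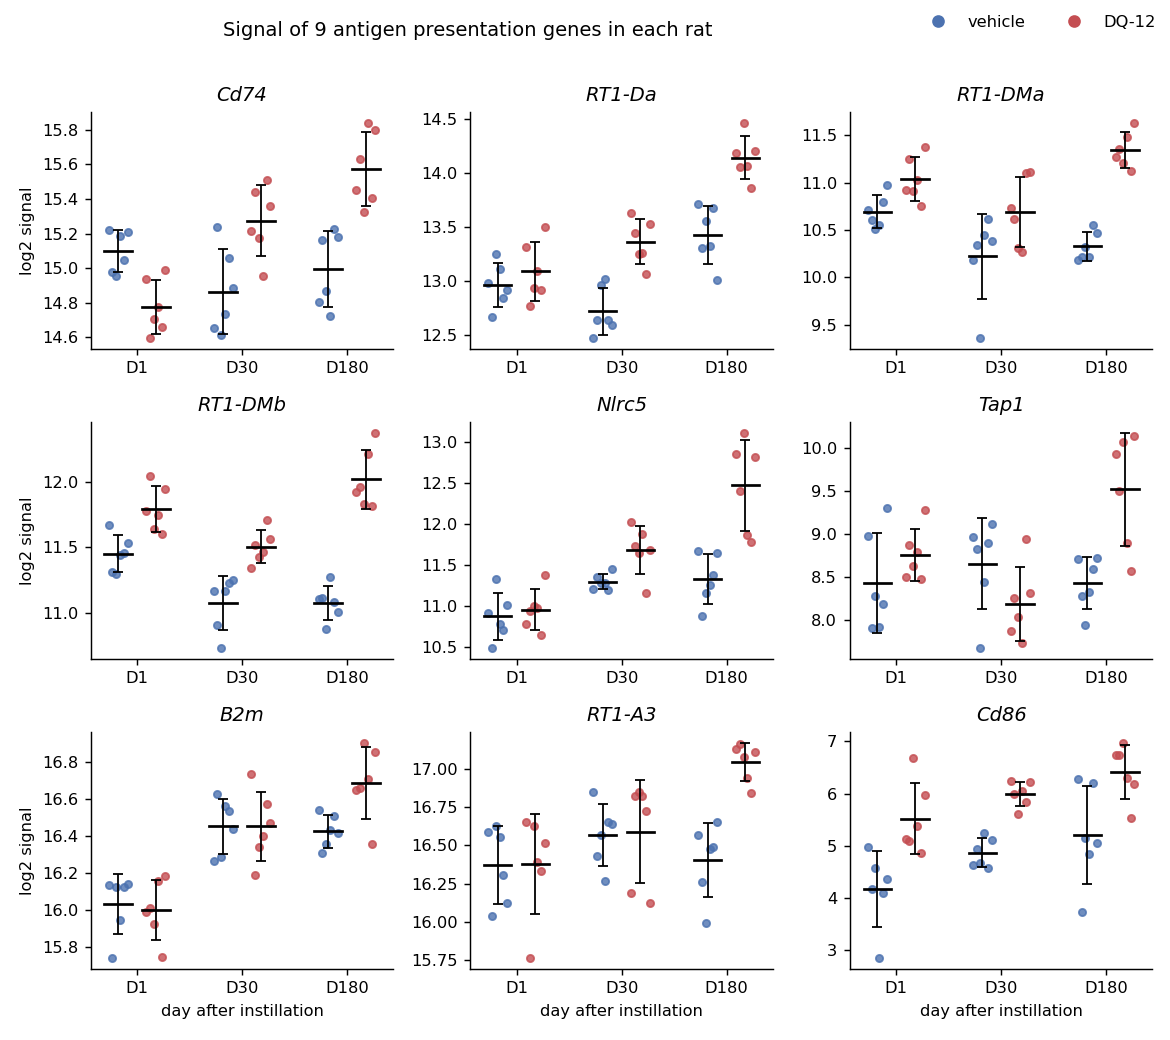
Log2 signal of 9 genes (vertical axis, quantile-normalised) in each rat at D1, D30 and D180, with vehicle rats in blue and DQ-12 rats in red, 6 per group. Black lines give the mean and SD; at D180 the DQ-12 rats lie above all vehicle rats in Cd74, RT1-Da, RT1-DMa, RT1-DMb, Nlrc5 and RT1-A3, while Tap1, B2m and Cd86 overlap.

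Among the class I heavy chains, 10 of 37 were higher at D180 at an adjusted p under 0.05, against 7.82% of all genes, 0 were lower, and 0 reached 2-fold. In order of log2 FC these were RT1-CE10 (0.73), RT1-N3 (0.71), RT1-CE3 and RT1-A3 (0.64), RT1-CE13 (0.56), RT1-A1 (0.53), RT1-T18 (0.51), RT1-M6-2 (0.50), RT1-A2 (0.47) and RT1-M3-1 (0.35). Apart from RT1-A1, RT1-A2 and RT1-A3 these were named after their values were seen. The median log2 FC over the 37 was 0.34 at D180, -0.09 at D30 and 0.03 at D1, and 30, 13 and 22 of the 37 differences were above 0. The D180 count was 4 without DQ-12 D180 replicate 6, and 6 without DQ-12 D180 replicate 2 or vehicle D180 replicate 3. At D30 1 gene, RT1-T24-1, fell by 0.73 on the log2 scale (adjusted p = 0.0422, against 1.24% of all genes lower), and 0 rose, against 2.74% (at an unadjusted limma p under 0.05, 2 were higher and 6 lower). At D1 1 gene, RT1-N2, rose by 0.40 (adjusted p = 0.0479, against 7.58%), and both were named after their values were seen.

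The RT1-A genes are the classical class I heavy chains. At D180 the log2 signal of RT1-A1 was 17.01, 17.18 and 17.46 (lowest, median and highest) with DQ-12 and 16.29, 16.80 and 16.85 with vehicle. RT1-A3 ran from 16.84 over 17.10 to 17.16 with DQ-12 and from 15.99 over 16.48 to 16.65 with vehicle. RT1-A2 ran from 16.10 over 16.31 to 16.38 with DQ-12 and from 15.53 over 15.81 to 16.05 with vehicle. None of these 3 overlapped between groups at D180, and all overlapped at D1 and D30. A further gene of the family, RT1-A, also had its 5 measured DQ-12 rats above all vehicle rats (0.47 ± 0.20, 1 value left out as an outlier spot), with a limma adjusted p of 0.105. These 4 were the only ones of 37 class I genes without overlap at D180, against 3.85% of all genes with every DQ-12 rat above. The RT1-A1 and RT1-A2 probes share a run of 34 bases, so these may not be fully separate measurements, which was not tested. At D1 their log2 FC were 0.17 and -0.41. Of the other heavy chains named by mean signal, RT1-EC2, RT1-CE16 and RT1-S2 had log2 FC of 0.26, 0.48 and 0.34 at D180, none past the adjusted p.

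At D180, of the 8 class I accessory genes, 7 were higher at an adjusted p under 0.05, against 7.82% of all genes, and 2 passed both thresholds, against 2.86%, with a median log2 FC of 0.72. At D30 0 of 8 passed in limma, against 2.74% of all genes (2 had an unadjusted p under 0.05), with a median of 0.18, and at D1 1 of 8 passed, against 7.58%, with a median of 0.06. Nlrc5, the class I regulator, had a log2 signal of 11.79, 12.61 and 13.11 (lowest, median and highest) with DQ-12 at D180 and 10.88, 11.32 and 11.67 with vehicle. The groups did not overlap (log2 FC 1.14 ± 0.19, n = 6, limma adjusted p = 2.96e-05), and its other probe gave 1.09. Tap1, a subunit of the peptide transporter, ran from 8.57 over 9.72 to 10.14 with DQ-12 and from 7.94 over 8.46 to 8.72 with vehicle. This rise of 1.09 ± 0.27 (n = 6, limma adjusted p = 0.00425) left 1 DQ-12 rat within the vehicle range, and the other Tap1 probe gave 1.17.

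The remaining accessory genes stayed below 2-fold. Tapbp, the tapasin gene, rose at D180 by 0.77 ± 0.13 (n = 6, limma adjusted p = 3.51e-05), from 10.02, 10.16 and 10.42 with vehicle to 10.50, 11.01 and 11.38 with DQ-12, with no overlap. It was also the accessory gene that passed the adjusted p at D1 (0.60), where 5 of 6 DQ-12 rats lay above every vehicle rat, and its value there was 0.37 within the shared scan date. The inducible proteasome subunits Psmb9, Psmb8 and Psmb10, which replace the constitutive catalytic subunits, rose at D180 by 0.81, 0.67 and 0.54 and did not pass at D1 or D30. Tap2, the other transporter subunit, rose by 0.50 (adjusted p = 0.0453). B2m had a log2 signal of 16.35, 16.68 and 16.90 with DQ-12 and 16.31, 16.42 and 16.54 with vehicle at D180, and its difference of 0.26 ± 0.10 (n = 6) did not pass (limma adjusted p = 0.068). With arrays scaled to their 75th percentile instead, B2m passed at 0.42.

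**Figure D2:**
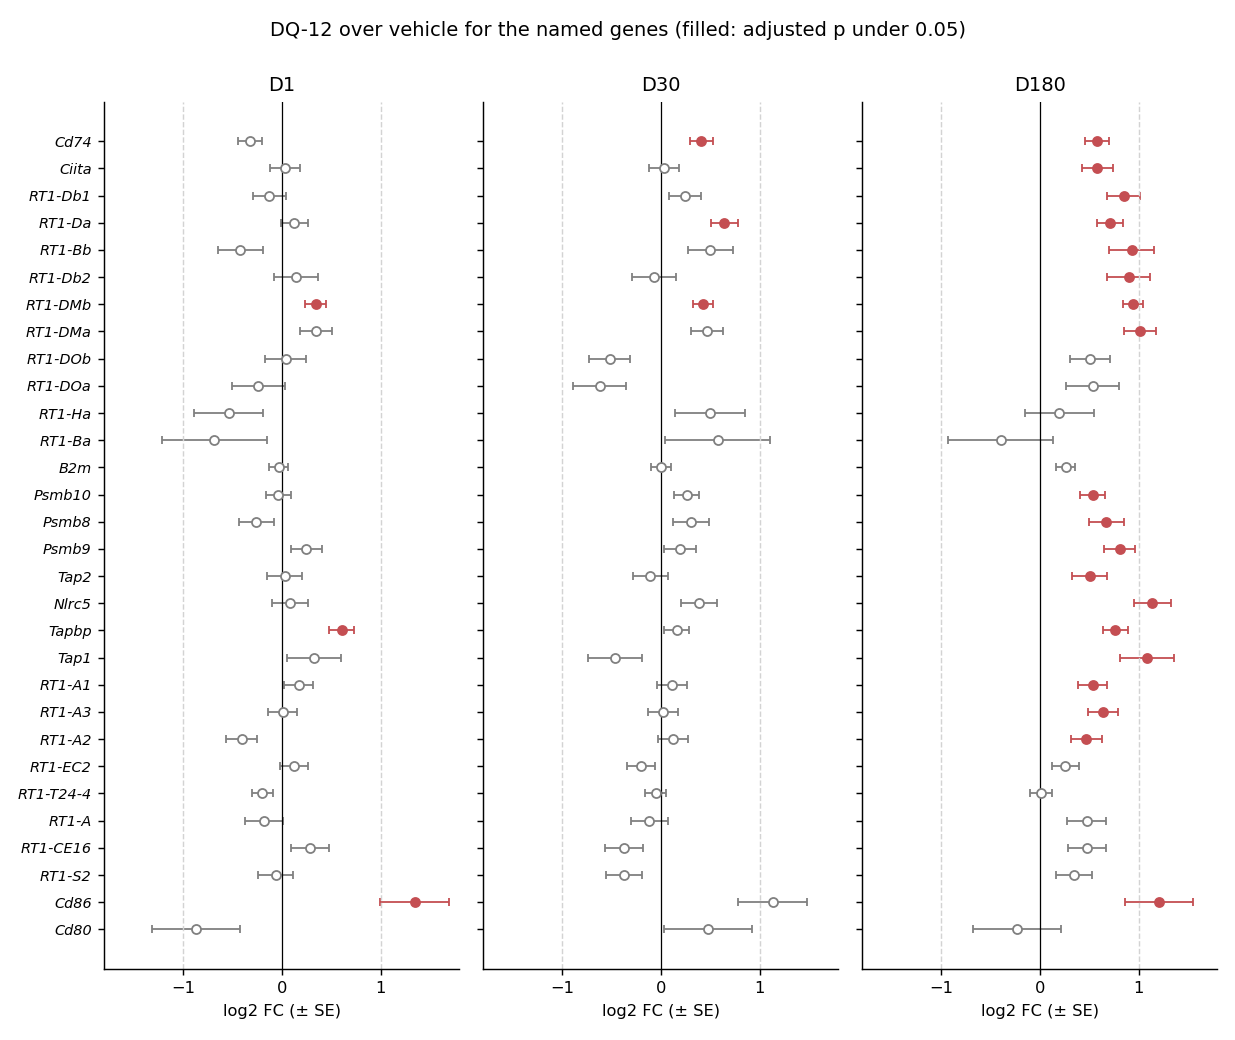
Log2 FC of DQ-12 over vehicle (horizontal axis, ± SE from limma, 6 rats per group) for the class II genes, class I accessory genes, the 8 brightest class I heavy chains and the costimulatory genes at D1, D30 and D180. Filled red points have an adjusted p under 0.05 and dashed lines mark 2-fold; of the genes shown, 3 are filled at D1, 3 at D30 and 19 at D180.

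Over all 59 genes, 1 was called higher at D1 (Cd86, against 2.02% of all genes called higher), 0 at D30 (against 0.915%) and 4 at D180 (RT1-DMa, Nlrc5, Tap1 and Cd86, 6.78% against 2.86%). None was called lower, against 1.05%, 0.138% and 0.773% of all genes. By the adjusted p alone the counts higher were 4, 3 and 26 of 59, against 7.58%, 2.74% and 7.82% of all genes higher, and the counts lower 0, 1 and 0, against 8.62%, 1.24% and 9% of all genes lower. At D180 every DQ-12 value exceeded every vehicle value in 12 of the 59 (against 3.85% of all genes), at D30 in 3 (RT1-Da, RT1-DMb and Cd86, against 1.81% of all genes) and at D1 in 0 (against 5.25%). The D180 count of 26 was 24 with scan date as a fixed block, 24 among the 3 and 3 rats scanned on the same date, and 3 with slide as a fixed block (Nlrc5, Tap1 and Psmb9). In that last fit the D180 change rests on the 1 slide that held a rat of each group, and the class II median was 0.79 and the class I median 0.41. The number called at D180 was 2 without vehicle D180 replicate 2 or DQ-12 D180 replicate 6. It was 7 without the 2 D180 arrays that had the lowest and highest share of probes well above background, a choice made after seeing the data.

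**Figure D3:**
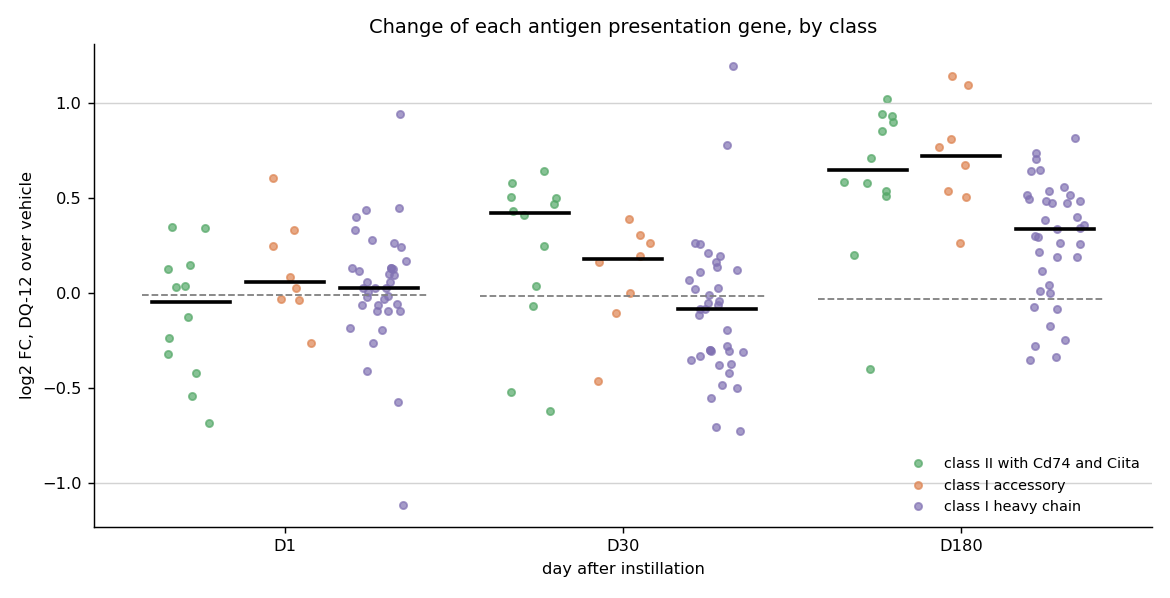
Log2 FC of DQ-12 over vehicle (vertical axis) for each of 12 class II genes (green, with Cd74 and Ciita), 8 class I accessory genes (orange) and 37 class I heavy chain genes (purple) at D1, D30 and D180, 6 rats per group. Black bars are class medians (0.65, 0.72 and 0.34 at D180), the dashed line is the median of all genes and thin grey lines mark 2-fold.

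The medians of class II and class I heavy chains are set side by side with no test of their difference. At D30 the class II median was 0.42 and the class I median -0.09, against -0.02 over all genes, and 9 of 12 class II differences and 13 of 37 class I differences were above 0. At D180 the medians were 0.65 and 0.34. With normexp they were 0.25 and -0.066 at D30 and 0.65 and 0.28 at D180, so which time had the wider gap depended on the background correction. The mean log2 signal over the 10 class II chains ran from 9.29 to 9.83 across DQ-12 rats and from 8.80 to 9.16 across vehicle rats at D180, with no overlap, and that over class I from 10.75 to 11.41 and from 10.56 to 11.15, with overlap. With each rat left out in turn the class II median at D30 ran from 0.19 (without DQ-12 D30 replicate 5) to 0.46, and the class I median from -0.21 (without vehicle D30 replicate 4) to -0.04.

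The difference of Cd74 and B2m in the same rat sets the partner chain of class II beside that of class I as 1 value per rat, and only its shift between groups has meaning, since probes differ in brightness. At D1 this difference of log2 signals was -1.22 ± 0.15 (SD, n = 6) with DQ-12 and -0.93 ± 0.16 with vehicle, lower by 0.29, and 4 DQ-12 rats lay below every vehicle rat (2-sided exact permutation p = 0.013). At D30 it was -1.17 ± 0.28 with DQ-12 and -1.59 ± 0.15 with vehicle, higher by 0.41, and 4 DQ-12 rats lay above every vehicle rat (2-sided exact permutation p = 0.013). At D180 it was -1.11 ± 0.25 and -1.43 ± 0.25, higher by 0.32, again with 4 DQ-12 rats above (2-sided exact permutation p = 0.0606). Adjusted over the 3 times the exact p values were 0.0195, 0.0195 and 0.0606, and the smallest p that 6 against 6 rats allow is 0.00216. So Cd74 was lower relative to B2m with DQ-12 at D1 and higher at D30, and the D180 difference did not pass. Within the scan date shared at D1 the difference was -0.054 (6 DQ-12 rats and 1 vehicle rat), and within those shared at D30 it was 0.45 and 0.55. The vehicle groups themselves lay at -0.93 at D1 and -1.59 at D30, further apart than DQ-12 and vehicle rats at either time, and no scan date held rats of both times.

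**Figure D4:**
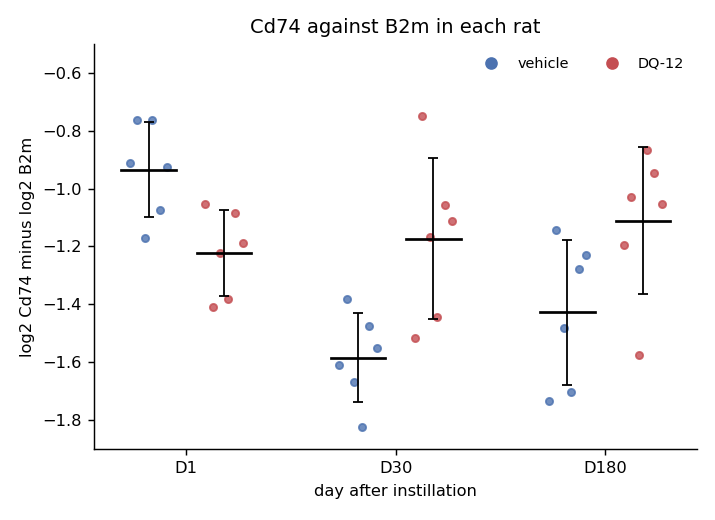
Log2 signal of Cd74 minus that of B2m (vertical axis) in each rat at D1, D30 and D180, vehicle in blue and DQ-12 in red, 6 rats per group, with mean and SD in black. DQ-12 rats sit lower than vehicle rats at D1 (-1.22 against -0.93) and higher at D30 (-1.17 against -1.59) and D180 (-1.11 against -1.43).

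The change itself was tested between times as an interaction. From D1 to D30 it became more positive in 1 of 59 genes, Cd74 (by 0.73, adjusted p = 0.0138, against 0.923% of all genes). From D1 to D180 it became more positive in 7, RT1-Bb (1.35), Nlrc5 (1.06), RT1-Db1 (0.98), Psmb8 (0.93), Cd74 (0.90), RT1-A2 (0.88) and RT1-DMb (0.60), against 2.6% of all genes. In 0 genes did it become more negative, against 1.25% and 1.95%. From D30 to D180 0 of 59 passed in limma (29 had an unadjusted p under 0.05, all more positive), against 0.167% of all genes more positive and 0.0794% more negative, although without the vehicle D30 rat of replicate 3, or without the DQ-12 D30 rat of replicate 5, 7 passed. The share of all genes at an unadjusted p was not counted, so the 29 cannot be set against it. With scan date as a fixed block the D1 to D30 count was 0 and the D1 to D180 count 1.

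Cd86 and Cd80 give T cells the second signal, through CD28. Cd86 was called at D1, where its log2 signal was 4.86, 5.25 and 6.67 (lowest, median and highest) with DQ-12 and 2.84, 4.26 and 4.98 with vehicle, and 5 of 6 DQ-12 rats were above every vehicle rat. It was called at D180, at 5.54, 6.52 and 6.97 against 3.73, 5.10 and 6.28, with 4 of 6 above. At D30 the groups did not overlap, at 5.61, 6.03 and 6.24 against 4.57, 4.80 and 5.25, but the limma adjusted p was 0.0603 (0.0359 with arrays scaled to their 75th percentile). The 3 log2 FC were 1.35, 1.13 and 1.21 (SE 0.35, n = 6, limma adjusted p = 0.00677, 0.0603 and 0.0129). Cd86 is a dim gene, well above background on 4 of 6 vehicle arrays at each time, and the D1 call was lost with scan date as a fixed block (0.94). With normexp background correction at an offset of 50 its log2 FC were 0.40, 0.48 and 0.52. Cd80 was well above background on 9 of 36 arrays and on none at D30, and its differences passed no test.

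Further lists hold other genes of the same pathways. For comparison, 7.58%, 2.74% and 7.82% of all genes were higher by the adjusted p at D1, D30 and D180. Of 15 other class II processing genes tested, 5 were higher at D180 at an adjusted p under 0.05, and these were the lysosomal enzymes: Ifi30, the thiol reductase (1.35, called), the cathepsins Ctss (0.95), Ctsd (0.89) and Ctsb (0.57), and the legumain gene Lgmn (0.72). Ifi30 ran from 13.79 to 14.30 with DQ-12 and from 12.59 to 12.83 with vehicle at D180, and its groups were apart at D1 and D30 too. The 10 others, among them the X box factor genes Rfx5, Rfxap and Rfxank, did not pass, and the list median was 0.03. Of 12 other class I loading genes, 4 were higher at D1, led by Calr, the calreticulin gene (1.00), and Pdia3 (0.69), 1 at D30 (Calr) and 2 at D180 (Calr and Psme2), with none called. Of 6 class I-like genes outside RT1, 0 passed at D30 and D180 (2 at each time at an unadjusted limma p under 0.05) and 1, Hfe, was higher at D1 (0.57).

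Interferon gamma and its pathway were read in the same way. At D180 7.82% of all genes were higher by the adjusted p and 2.86% were called higher. At D30 0.915% were called higher, and at D1 1.05% were called lower. Of 13 interferon gamma axis genes, 6 were higher at D180: Il12b, a subunit of interleukin 12 (2.16, called), Irf8 (0.82), Irf1 (0.65), Ifngr2 (0.64), Il18 (0.38) and Jak2 (0.31). Il12b was called at D30 too, where no vehicle array had it well above background and it was at least 3.02-fold higher, a bound set by the dimmest probes well above background. Ifng itself was well above background on at most 1 of 6 vehicle arrays at any time, and its differences did not pass. Of 8 other genes of stimulatory or inhibitory T cell signals, the inhibitory ligand gene Cd274 (PD-L1, 1.32) and Icos (1.39) were called at D180. Icos was also called at D30 (1.05). Pdcd1, the PD-1 gene, was called lower at D1 (-1.004), but its other probe gave 1.03.

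Markers of cells that the lobe could hold were read beside these results. Of all genes at D180, 2.86% were called higher, and by the adjusted p alone 7.82% were higher and 9% lower. Of 8 macrophage markers 4 were called higher at D180 (Cd68 1.55, Itgam 2.19, Siglec1 1.96 and Marco 2.62), and Cd163 fell by 0.89 on the log2 scale. The log2 of their summed signal ran from 14.05 to 14.68 across DQ-12 rats and from 12.78 to 13.29 across vehicle rats. Of 10 dendritic cell markers 3 were called at D180 (Cd207 at least 4.35-fold, Clec9a 1.31 and Irf4 1.46), while Zbtb46 fell by 0.56 and Xcr1 was well above background on 0 arrays, with summed signals of 12.02 to 12.35 against 11.43 to 11.75. Of 7 neutrophil markers 4 were called at D180, led by S100a9 (2.57), and Fpr1 fell by 0.57, with summed signals of 15.52 to 16.04 against 13.03 to 13.97. None of 8 B cell markers passed in limma at any time (at D180 1 had an unadjusted p under 0.05, with summed signals at D180 11.24 to 12.52 with DQ-12 and 11.72 to 12.37 with vehicle), and of 8 T cell markers 1, Cd4, was higher at D180 (0.40). Alveolar type 2 markers were higher in 4 of 8 at D180 (Lamp3 0.37, Napsa 0.41, Sftpa1 and Sftpd 0.47), with summed signals of 19.59 to 19.88 against 19.49 to 19.64. The NK cell markers passed in 0 of 7 (1 lower at an unadjusted p under 0.05), with summed signals of 12.37 to 13.93 against 13.05 to 13.65. The part of these cells in the class II and class I results was not tested.

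Of all genes, 2.02% were called higher at D1 and 0.915% at D30. At D1 macrophage markers were called in 0 of 8 and dendritic cell markers in 1 of 10 (Cd207, 2.12). The log2 signal of Cd207 was at or below 2.53 in all but the highest vehicle D1 rat. Its D1 log2 FC ran from 0.40 to 2.43 over the alternatives, and at D30 it lost the adjusted p in 15 of 50. Itgam (0.96) and Siglec1 (0.79) rose below 2-fold at D1, and Zbtb46 and the NK cell markers Klrd1 and Klrb1c fell by 0.45, 0.73 and 0.61. Of the neutrophil markers Csf3r was called at D1 (1.41), and S100a8 (1.096) and S100a9 (1.93) were called at D30, where Fpr1 fell by 0.95. At D30 Cd68 (1.16), Siglec1 (2.04) and Marco (at least 4.06-fold) were called among macrophage markers, and Clec9a (1.40) and Cd207 among dendritic cell markers, at a time when 3 of 12 class II genes and 0 of 37 class I genes were higher. Of the alveolar type 2 markers, Lamp3 (0.75), Sftpd (0.66) and Sftpa1 (0.49) rose at D30, with summed signals of 19.85 to 19.93 with DQ-12 and 19.64 to 19.76 with vehicle. Their part in the D30 rise of Cd74, RT1-Da and RT1-DMb was not tested.

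RT1-CE5 varied between rats more than any other gene tested. Its SD within groups was 2.85 on the log2 scale, against a median of 0.35 over all genes and 0.33 over class I genes. In 8 of 36 rats the log2 signal lay between 11.34 and 12.41, in the other 28 between 2.02 and 8.53, and no rat lay in the gap of 2.81. The 8 rats came from 5 of the 6 groups: 1 vehicle rat at D1, 2 vehicle and 2 DQ-12 rats at D30, and 2 vehicle and 1 DQ-12 rat at D180. Its log2 FC of -1.11, 0.78 and 0.12 (SE 1.59) passed no test. RT1-M4 (0.96) and RT1-T24-3 (0.77) also had a wide spread, with RT1-T24-3 at percentile 99.2 among genes of like signal. Other bright RT1 genes also varied widely for their signal: RT1-Bb (percentile 95.3), RT1-Db2 (94.7), RT1-CE16 (92.8) and RT1-A (92.3). Outside the RT1 genes, Tap1 (95.3), Nlrc5 (90.5) and Psmb8 (90.1) did so too. RT1-T24-4 (52.3), RT1-DMb (36.4), Tapbp (53.4) and B2m (39.8) did not. RT1-CE5, RT1-M4 and RT1-T24-3 were named after their values were seen. Whether the outbred rats differ in any of these genes was not tested.

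**Figure D5:**
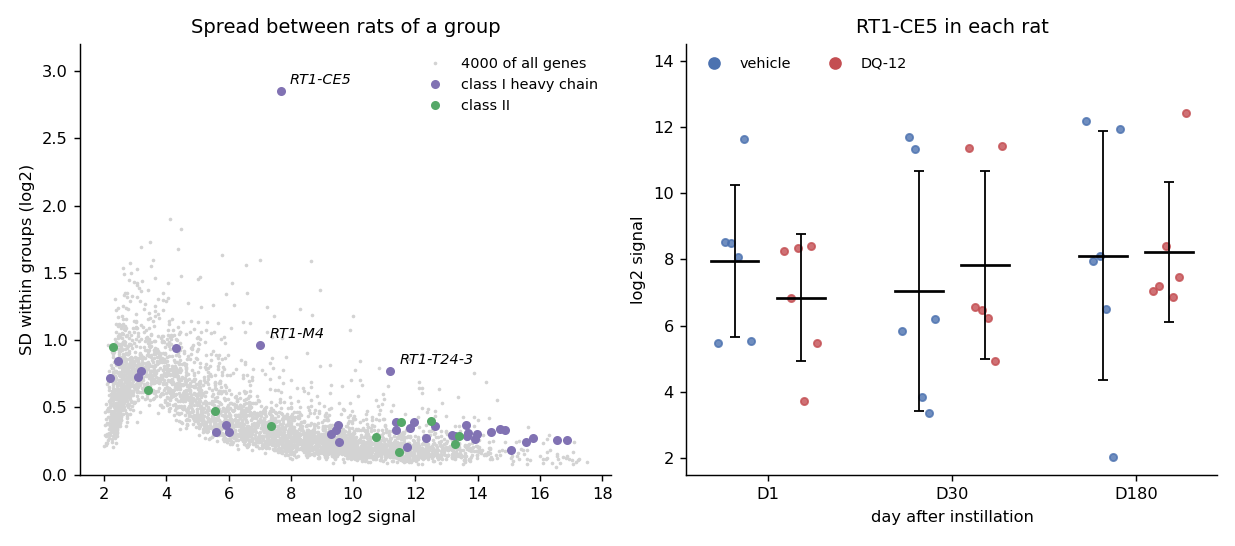
Left, SD of the log2 signal within groups (vertical axis) against mean log2 signal for class I heavy chain genes (purple), class II genes (green) and 4000 of all genes (grey). Right, log2 signal of RT1-CE5 in each rat by day and group (mean and SD in black): RT1-CE5 stands at an SD of 2.85, and 8 rats lie above 11.34 with the others at or below 8.53.

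Where a gene had several probes, they mostly moved alike at D180. Of 21 genes with several probes, 17 had at least 2 probes well above background on 30 or more arrays, and in 15 of these the signs were the same at D180. RT1-T24-4 was the clearest exception: its brightest probe had log2 FC of -0.20 at D1 and 0.01 at D180, while its other probes fell by 1.19 and 1.18 at D1 on the log2 scale (limma adjusted p = 0.00231 and 0.00235) and were at -0.78 and -0.71 at D180 (limma adjusted p = 0.0463 and 0.0688 over all probes). Tested probe by probe, 0.976% of all probes were called lower at D1 and 2.63% higher at D180.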

How the data were processed

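Total RNA of 36 accessory lobes was copied into cDNA, labelled (Cy3) and hybridised to single-color rat arrays. The authors extracted the data of the scanned arrays with Agilent Feature Extraction 12.0.1.1 (version from the submitters' processing notes). The deposited processed intensity per spot, background-subtracted and linear, was the starting point. The deposited value table holds log2 values; it matched the log2 of the scanner intensity scaled to each array's 75th percentile and centred on each probe's median over the arrays (r = 0.99997), with column medians from -0.152 to 0.227, and served as an alternative. The methods also name a batch correction without its batch variable, which was not repeated.

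Outlier spots were left out, spots of a probe averaged and a probe kept if on 6 or more arrays it was brighter than 95 percent of that array's negative controls. Intensities were quantile-normalised as log2 values, and the brightest probe stood for a gene. Group means were fitted over all 36 arrays with limma 3.58.1 in R 4.3.3, with Benjamini-Hochberg adjustment over all genes; the thresholds were a fold of 2 and an adjusted p of 0.05. Each array is 1 rat, and the number of arrays limits the precision. The analysis was tested on simulated data. Alternatives changed the scaling, background correction, filter, choice of probe, model and block (slide, scan date, replicate number) or left out each rat in turn.

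The members, lists and tests were chosen with earlier results of these data known. Genes named were all members outside the class I heavy chains, the 8 class I heavy chains with the highest mean signal, and genes of other lists called at any time; genes named beyond that were chosen after their values were seen, including those of the other lists that passed the adjusted p alone. Motifs were read from RefSeq promoters; no genome of the files' build was used here.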

Additional observations from a re-analysis of the deposited data

Results flagged for a closer look

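Single rats stood far from the other 5 of their group in 22 of the 282 groups checked, where chance alone gives about 1 in 20. Among class II genes these were the highest RT1-Ba rats of vehicle D1 (4.89), DQ-12 D30 (5.53), vehicle D180 (5.26) and DQ-12 D180 (2.83), where RT1-Ba was mostly not well above background. They were also vehicle D30 replicate 3 in RT1-Db1 (12.61) and RT1-DMa (9.36), both lowest, the highest DQ-12 D1 rat in RT1-Db2 (12.21), the lowest DQ-12 D180 rat in RT1-DOa (5.01), the highest DQ-12 D30 rat in RT1-DOb (7.94) and the lowest vehicle D180 rat in RT1-DOb (6.73). Among class I genes they were the lowest vehicle D30 rat in Tap2 (11.31), the highest vehicle rats in Psmb8 at D30 (13.78) and D180 (13.89), and the lowest DQ-12 D1 rat in RT1-A3 (15.76). In the other lists they were Cd207 in vehicle D1 (highest, 4.16) and DQ-12 D30 (lowest, 2.67), Irf4 in vehicle D1 (lowest, 7.67) and DQ-12 D30 (lowest, 8.66), Clec9a in vehicle D180 (highest, 8.08), Il12b in DQ-12 D180 (lowest, 5.46), Marco in vehicle D30 (highest, 3.29) and Cxcr2 in vehicle D1 (highest, 9.39).

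The change with DQ-12 differed between times by the interaction test, in log2 units, for Cd74 from D1 to D30 (0.73), and from D1 to D180 for Cd74 (0.90), Nlrc5 (1.06), Psmb8 (0.93), RT1-A2 (0.88), RT1-Bb (1.35), RT1-DMb (0.60) and RT1-Db1 (0.98).

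Of 24 probes of these genes that did not stand for their gene, 4 changed past both thresholds: those of RT1-T24-4 at D1 (-1.19 and -1.18), of Nlrc5 at D180 (1.09) and of Tap1 at D180 (1.17).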

How the results depend on the processing

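Of the values of named genes under all alternatives, 6762 kept their side of the adjusted p of 0.05, 213 lost it, 67 gained it and 4 reversed. Values that did not pass could change sign and still count as kept, as for Marco at D1 (-0.68 to 0.56). With each rat left out, members called ran from 1 to 1 (D1), 0 to 1 (D30) and 2 to 5 (D180), class II from 0 to 0, 0 to 0 and 0 to 2 (2 without vehicle D180 replicate 3 or DQ-12 D180 replicate 5), and class I from 0 to 0, 0 to 1 and 0 to 0. The D30 member was Cd86 without vehicle D1 replicate 4, DQ-12 D1 replicate 3, vehicle D30 replicate 4, DQ-12 D30 replicate 5 or vehicle D180 replicate 1, 2 or 5, and a class I gene without vehicle D30 replicate 3. Members higher by the adjusted p ran from 2 (without replicate 2 of either D1 group or DQ-12 D1 replicate 6) to 5 at D1, 2 to 4 at D30 and 19 to 29 at D180 (class II 8 to 9, class I 4 to 12). Interactions ran from 1 to 2 (2 without DQ-12 D30 replicate 5), 0 to 7 (1 without vehicle D30 replicate 4, 2 without DQ-12 D180 replicate 5) and 6 to 9, for D1 to D30, D30 to D180 and D1 to D180. Cd74 minus B2m ran from -0.34 to -0.25, 0.33 to 0.48 and 0.26 to 0.41, and its D180 shift passed without vehicle D180 replicate 2 (0.38) or DQ-12 D180 replicate 3 (0.41). At D1 the 1 member called became 0 with normexp, slide or scan date as a fixed block, scan date as a random block or within the shared scan date, and 2 with the median of the probes or every probe. At D30 the 0 became 1 with 75th percentile scaling, the deposited table, the filter on well above background, each time alone, slide as a random block and within a scan date (1 DQ-12 and 4 vehicle rats; class II 1 there). At D180 the 4 became 1 with normexp (class II 0), 0 within the scan date of 1 rat a group (class II 0), and 7 without the 2 extreme arrays. Class II had 0 called at D180 with slide as a fixed block, and class I 1 at D1 with the median of the probes or every probe. A fold of 1.5 gave members 2, 2 and 16, class II 1 at D30 and 6 at D180, and class I 1 at D30 and 4 at D180. The adjusted p alone, either direction, gave members 4, 4 and 26, class II 1, 3 and 8, and class I 1, 1 and 10. Interactions from D1 to D30 became 0 with slide or scan date as a fixed block, those from D30 to D180 became 1 with either other scaling, normexp, the background filter, trend and robust moderation or slide as a fixed block, and the 7 from D1 to D180 became 2 (slide fixed), 1 (scan date fixed) and 3 (scan date random). Counts by the adjusted p alone under the same alternatives were added after seeing the data. Members higher became 0 (slide or scan date fixed, within the scan date) or 1 (scan date random) at D1, 6 (slide random), 1 and 0 (within each scan date) at D30, and 3 (slide fixed) or 0 (within the scan date of 1 rat a group) at D180, where class II and class I were 0 in both. Within scan dates the Cd74 minus B2m shift at D30 was 0.45 (1 DQ-12 and 4 vehicle rats) and 0.55 (5 DQ-12 and 2 vehicle rats, exact permutation p = 0.143). At D1 it was -0.054 (6 DQ-12 rats and 1 vehicle rat). With 1 rat in a group so few splits exist that no shift could pass, so those dates cannot decide. Reversed were the class I median at D180 within the scan date of 1 rat a group (-0.073), RT1-T24-4 at D180 with the median of the probes or its other probe (both -0.78) and Pdcd1 at D1 likewise (0.014 and 1.03). The cause was not tested beyond what fewer rats or fewer probes imply. Of 18 pairs of equal replicate number, 6 correlated above 0.1 (-0.131 to 0.218) and 5 rats correlated best with their own number. These values do not show that equal numbers mark pairs, and they cannot decide it. With the replicate block 1, 1 and 4 members were called (class II 0, 0 and 1, class I 0, 1 and 0). By the adjusted p 4, 4 and 25 members were higher, and interactions were 1, 0 and 9. The paired sign-flip test of Cd74 minus B2m gave p of 0.0469, 0.0469 and 0.0625 after adjustment over the 3 times. Signal over background limits Cd80, RT1-Ba and RT1-Ha, which were mostly not well above background.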
